A study of Mus musculus with 4 samples.

Results

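Zic1, Zic2, Zic4, Zic5, Nkx2-1, Lhx2, Lhx6, Lhx8, Six3 and Prdm16, transcription factors known for their roles in patterning the embryonic septum and its neighbours, were followed through the cell types of the adult mouse lateral septum (LS). They were chosen by symbol, and all 10 were found among the 32285 genes counted. Single-nucleus RNA sequencing counts molecules tagged with unique molecular identifiers (UMIs), and LS tissue of male mice aged 6 to 8 weeks, 3 mice pooled per library, was sequenced in 4 libraries. Of these, 2 were from wildtype C57J mice (C57BL/6JNifdc in the labels; C57J 1 and C57J 2), and the others were 1 library each from nude and BALB/c animals. Nude mice are Foxn1 knockout animals on the BALB/c background that lack T cells, so the BALB/c background is common to the nude and BALB/c libraries. C57J 1 formed batch 1, whereas the other libraries formed batch 2. Each strain other than C57J had a single library of pooled mice, so the spread between individual mice within a strain is not known.

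Zic proteins are zinc finger factors of the dorsal midline and septum, and their genes lie in the genome as neighbouring pairs. Nkx2-1 is the homeodomain factor that sets the identity of the medial ganglionic eminence and the ventral septum, Lhx6 and Lhx8 are LIM homeodomain factors that act after it in GABAergic and cholinergic neurons, and Lhx2 is a LIM homeodomain factor of the pallium and of glia. Six3 patterns the rostral forebrain and acts in striatal neurons, and Prdm16 is a PR domain zinc finger factor of neural progenitors and glia.

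Zic1 lies on chromosome 9 from 91358058 to 91365810 (mm10, GRCm38) on the minus strand, and Zic4 from 91362413 to 91389348 on the plus strand, so the genes overlap over 3398 bases. Zic5 and Zic2 lie on chromosome 14, from 122456795 to 122465677 on the minus strand and from 122475435 to 122479852 on the plus strand, 9757 bases apart. The other members lie alone: Nkx2-1 on chromosome 12 from 56531958 to 56536908, Lhx2 on chromosome 2 from 38339281 to 38369733, Lhx6 on chromosome 2 from 36081953 to 36105408, Lhx8 on chromosome 3 from 154306294 to 154330659, Six3 on chromosome 17 from 85613608 to 85629302 and Prdm16 on chromosome 4 from 154316125 to 154636873. Whether the counting used strand is not given in the sources used here, so UMIs from the stretch shared by Zic1 and Zic4 cannot be assigned to either with certainty. The same holds for Nkx2-1, Lhx2 and Six3, each of which overlaps an antisense noncoding gene (Gm26973, Gm13584 and Six3os1), and for Prdm16, which overlaps B230104I21Rik, Gm13133 and Gm13134 on the other strand.

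Promoters, taken as 250 bases before to 50 bases after the annotated start, were found in RefSeq (GRCm38.p6) for 9 of the 10 genes. Those of Zic1, Zic4 and Zic5 are shown because the levels of these genes were correlated across cell types (Pearson r of 0.80 to 0.93), and those of Nkx2-1 and Lhx8 because both were highest in the same neurons. Capitals mark matches, on either strand, to the GC box (GGGCGG) or to the core of the Nkx2 motif (CAAGTG).
Zic1, chr9:91365719-91366018, minus strand: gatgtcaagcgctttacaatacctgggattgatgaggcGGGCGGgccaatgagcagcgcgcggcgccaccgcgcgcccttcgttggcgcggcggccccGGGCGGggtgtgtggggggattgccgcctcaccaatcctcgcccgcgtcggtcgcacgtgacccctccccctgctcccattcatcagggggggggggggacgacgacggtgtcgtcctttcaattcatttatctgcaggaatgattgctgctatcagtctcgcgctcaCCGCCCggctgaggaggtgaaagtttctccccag
Zic4, chr9:91368722-91369021, plus strand: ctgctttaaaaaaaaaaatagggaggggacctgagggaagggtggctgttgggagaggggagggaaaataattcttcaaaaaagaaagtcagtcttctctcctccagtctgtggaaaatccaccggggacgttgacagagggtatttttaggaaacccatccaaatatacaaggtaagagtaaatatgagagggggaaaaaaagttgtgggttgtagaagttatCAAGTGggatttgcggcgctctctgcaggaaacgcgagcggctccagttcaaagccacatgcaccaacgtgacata
Zic5, chr14:122465609-122465908, minus strand: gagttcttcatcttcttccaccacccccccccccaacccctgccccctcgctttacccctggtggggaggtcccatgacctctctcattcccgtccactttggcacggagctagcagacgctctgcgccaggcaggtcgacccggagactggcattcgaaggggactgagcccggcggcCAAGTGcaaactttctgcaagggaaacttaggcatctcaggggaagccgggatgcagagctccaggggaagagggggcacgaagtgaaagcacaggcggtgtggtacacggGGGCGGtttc
Nkx2-1, chr12:56536859-56537158, minus strand: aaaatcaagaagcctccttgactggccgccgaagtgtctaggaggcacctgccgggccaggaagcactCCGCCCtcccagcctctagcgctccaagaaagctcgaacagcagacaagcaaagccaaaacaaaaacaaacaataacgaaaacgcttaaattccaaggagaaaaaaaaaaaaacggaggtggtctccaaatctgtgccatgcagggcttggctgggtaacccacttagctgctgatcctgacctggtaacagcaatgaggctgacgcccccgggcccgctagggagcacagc
Lhx8, chr3:154330511-154330810, minus strand: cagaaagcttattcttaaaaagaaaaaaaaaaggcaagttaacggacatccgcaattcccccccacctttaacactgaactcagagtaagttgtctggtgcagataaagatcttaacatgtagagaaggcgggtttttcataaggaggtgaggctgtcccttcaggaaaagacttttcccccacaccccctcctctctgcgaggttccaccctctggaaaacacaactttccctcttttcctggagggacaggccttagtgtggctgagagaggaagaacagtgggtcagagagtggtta

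In these letters, the Zic1 window held 3 GC boxes and the Zic4 window held none. The Nkx2 core stood in the Zic4 and the Zic5 windows, 26 and 71 bases before the RefSeq start. The Zic4 window, from 91368722 to 91369021, lies inside the gene span given above, which begins at 91362413. The RefSeq start of Zic4 used here thus differs from the start of that span. Over 32851 mouse promoters of this length, 35.7% held a GC box and 13.6% the Nkx2 core, so each match is common. The Lhx8 window held none of the 5 motifs searched, which were these, the Zic core (CAGCAGG, 10.5% of promoters), the homeodomain core (TAATTA, 5.29%) and the TATA box (TATAAA, 13.6%). GC content was 65.3% in the Zic1 window and 46% in the Zic4 window, against a median of 52.7% over all promoters.

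The libraries held 72912922 to 125998527 UMIs, and 49425 of 58372 barcodes were retained as nuclei. BALB/c stood apart by its depth, with a median of 8836 UMIs per barcode against 4429 to 5081 in the others. Pairs of libraries shared 29 to 63 barcode sequences. Nuclei were clustered here without the members, the other listed factors and the noncoding genes beside them, and 45 cell types with at least 20 nuclei in every library were compared, of which 23 were LS neuron types. The LS neurons (20948 nuclei) carried the 4 LS markers at their highest level of any class. Their clusters were picked by these markers, so this is not a check of the name. LS types are called by their leading marker genes. A class of 1491 neurons scored on markers of neurons from the medial ganglionic eminence is called Elavl2 Sox6 neurons, because only 1 of its 7 markers was at its highest there. It held a Sox6 type and a Maf type. Sox6 was highest in these types among the 37 neuron types (means of 1022 and 729.8 CPM), Elavl2 was behind the cholinergic neurons only (913 and 746), and Pvalb was at 3.44 or less. The types differed in Nxph1, at 104 in the Sox6 type, the lowest of the 37, and 2936 in the Maf type. They also differed in Maf, at 4.81 and 127. Levels are raw UMIs of a gene per 1000000 UMIs of the type (CPM), summed per library, and where 4 values are listed they belong to C57J 1, C57J 2, nude and then BALB/c.

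UMIs of the members were also found in cells not known to express them. Zic1 was at 239, 166, 207 and 135 CPM in microglia, a cell type not known to express it, which overlapped its level in LS neurons (185, 168, 176 and 183). Microglial nuclei held few UMIs, and per 1000 nuclei the same UMIs came to 432, 224, 308 and 379 in microglia against 1594, 1186, 1236 and 2471 in LS neurons. The groups thus overlapped in CPM but not per nucleus. For this reason the level per nucleus relative to the microglia of the same library is given beside the CPM, and a ratio near 1 is read as background. Free RNA itself was not measured here. The ratio does not correct for the size of a nucleus, and it is imprecise where microglia held few UMIs of a gene.

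**Figure D1:**
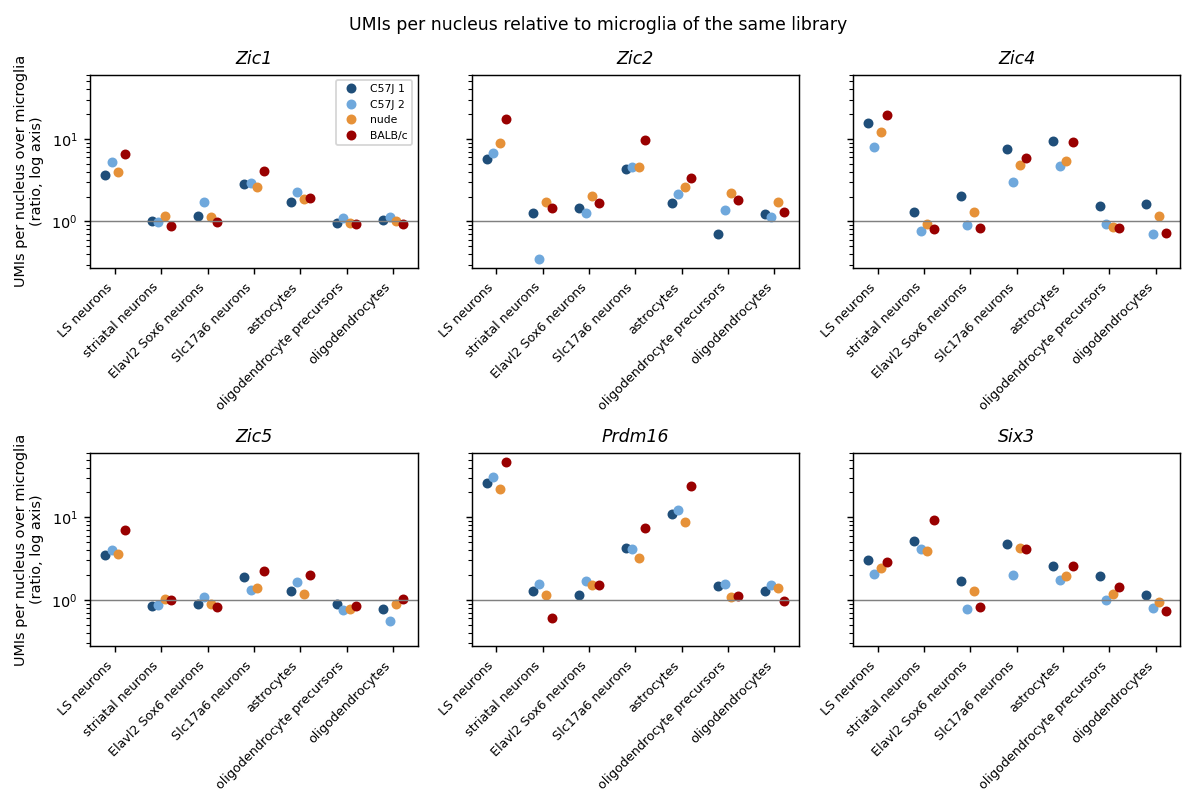
UMIs per nucleus of 6 genes in 7 cell classes, divided by those of the microglia of the same library (y axis, ratio on a log scale), with 1 point per library and a grey line at a ratio of 1. Zic1, Zic4, Zic5 and Prdm16 stand above the line in LS neurons and near it in striatal neurons and oligodendrocytes. In astrocytes Zic1, Zic4 and Prdm16 stand above the line and Zic5 closer to it, and Six3 stands above it in striatal neurons.

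Zic genes were higher in LS neurons than in striatal and Elavl2 Sox6 neurons. Cholinergic neurons overlapped LS neurons in the level per nucleus relative to microglia. Astrocytes held Zic4 and, less far above microglia, Zic1 and Zic2, with Zic5 close to background. Zic4 was at 98.0, 94.5, 135 and 133 CPM in LS neurons, at 13.3, 13.7, 15.6 and 7.70 in striatal neurons and at 12.5, 10.1, 13.5 and 5.17 in Elavl2 Sox6 neurons. Its level per nucleus was 7.97 to 19.5 times that of microglia in LS neurons and 0.762 to 1.31 times in striatal neurons, so the UMIs in striatal neurons were at background. Zic2 was at 21.9, 21.4, 26.9 and 34.8 in LS neurons (5.66 to 17.2 times microglia) and at 1.66 to 7.88 in striatal neurons. Zic5 was at 29.9, 27.8, 30.5 and 30.4 in LS neurons (3.53 to 7.10 times microglia) and at 5.93 to 13.0 in striatal neurons. In each library, these 3 genes and Zic1 (3.69 to 6.52 times microglia in LS neurons) were higher in LS neurons than in striatal neurons and Elavl2 Sox6 neurons. LS nuclei were deeper than microglia, with medians of 6407 to 12787.5 UMIs over the libraries against 1314.5 to 2658. The ratios of Zic1 and Zic5 therefore do not by themselves place these genes above microglia in CPM. Cholinergic neurons stood at 4.43 to 5.58 times microglia for Zic1, 4.83 to 12.7 for Zic2, 5.39 to 14.2 for Zic4 and 1.91 to 4.88 for Zic5, ranges that overlapped those of LS neurons. Cholinergic nuclei were also deep, with medians of 8785 to 16617 UMIs over the libraries. Their ratios therefore do not by themselves place the Zic genes above microglia in CPM. The glutamatergic Slc17a6 neurons stood at 2.64 to 4.14 times microglia for Zic1 and 4.28 to 9.70 for Zic2, which also overlapped LS neurons. They stood at 2.97 to 7.55 for Zic4 and 1.31 to 2.24 for Zic5, below LS neurons.

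Astrocytes held Zic4 at 183, 184, 192 and 187 CPM, above every LS value. Per 1000 nuclei the order turned, with 519, 391, 426 and 852 in astrocytes against 847, 667, 949 and 1795 in LS neurons. Relative to microglia, Zic4 stood at 4.67 to 9.49 in astrocytes, Zic1 at 1.75 to 2.26, Zic2 at 1.69 to 3.34 and Zic5 at 1.18 to 2.01. In oligodendrocytes and their precursors, Zic1 stood at 0.926 to 1.13 and was not detectable above background.

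The Zic4 UMIs per Zic1 UMI also differed between types. Over the libraries, this ratio was 0.531 to 0.768 in LS neurons and 0.688 to 1.18 in astrocytes, ranges that overlapped. In microglia the ratio was lower. Among the LS types, the Col6a3 Grid2ip neurons had the highest ratio in every library but C57J 2, at 1.22, 0.924, 1.58 and 1.62. The Dach2 Crhr2 neurons were at 0.917, 1.05, 1.21 and 1.25, higher in C57J 2, and the ranges of these types overlapped. The microglia of the same libraries were at 0.127, 0.374, 0.255 and 0.243, below the Col6a3 Grid2ip neurons in every library and below the Crhr2 Dach2 neurons (0.310, 0.325, 0.387 and 0.383) in all but C57J 2.

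**Figure D2:**
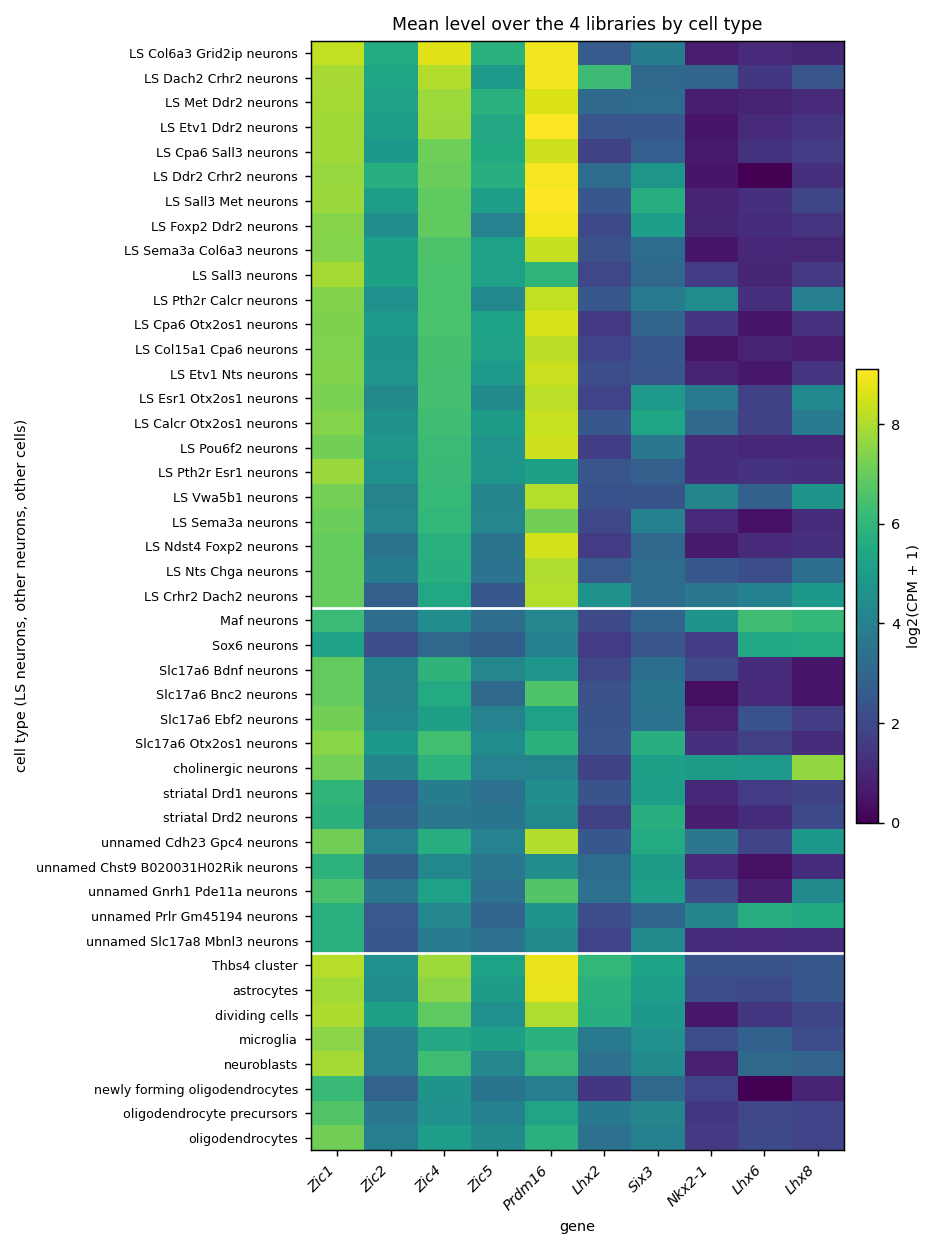
Mean level over the 4 libraries of the 10 genes (columns) in the 45 cell types (rows; LS neuron types, other neurons and other cells, separated by white lines), as log2(CPM + 1) on the color scale. LS rows are ordered by Zic4, from 416 CPM in the Col6a3 Grid2ip neurons to 43.0 in the Crhr2 Dach2 neurons, and Lhx6, Lhx8 and Nkx2-1 are light in the Maf and cholinergic rows.

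Among LS types, Zic4 was the Zic gene whose highest type stood farthest above the median. Its highest level was in the Col6a3 Grid2ip neurons, at 381, 266, 494 and 524 CPM in 132, 158, 272 and 231 nuclei, 4.57 times the median of the 23 LS types. The Dach2 Crhr2 neurons followed at 243, 219.8, 289 and 320.3, and the ranges of these neighbours overlapped. For Zic1, Zic2 and Zic5 the highest LS type was only 1.81, 2.00 and 1.92 times the median.

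The LS Crhr2 Dach2 neurons were at the low end for the Zic genes. Zic4 was at 45.6, 41.2, 46.6 and 38.6 there, Zic2 at 2.94, 4.58, 9.06 and 6.22, and Zic5 at 8.83, 6.11, 2.59 and 1.24, the last from 6, 4, 2 and 1 UMIs. Zic1, at a mean of 124, was within 1 CPM of its lowest LS type, the Nts Chga neurons. Chat and Slc5a7, genes of acetylcholine synthesis and choline uptake, were among the leading genes of the Crhr2 Dach2 type, and it also held Lhx8 (17.7, 26.0, 23.3 and 44.8), Lhx6 (13.3, 10.7, 18.1 and 18.7) and Lhx2 (28.0, 26.0, 27.2 and 17.4). These were the highest Lhx6 and Lhx8 means of the 23 LS types.

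Prdm16 was shared by LS neurons, astrocytes and further classes. It stood at 310.2, 329, 353 and 346 CPM in LS neurons and at 395, 439.5, 446 and 519 in astrocytes, or 22.1 to 47.3 and 8.86 to 23.8 times microglia per nucleus. In striatal neurons it was at 24.2, 25.8, 27.4 and 6.22 (0.610 to 1.57 times microglia), and in cholinergic neurons 29 UMIs were found in 178 nuclei. Among LS types it was low in the Sall3 neurons (49.7, 77.1, 56.8 and 64.2) and the Sema3a neurons (123, 138, 167 and 149).

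The Pth2r Esr1 neurons held the least Prdm16 of the LS types, at 28.9, 36.7, 46.6 and 29.6, whereas the Etv1 Ddr2 neurons held the most, at 497, 509.9, 659 and 557. With each nucleus thinned to 1000 UMIs, a Prdm16 UMI was found in 4.37% of the 458 Pth2r Esr1 nuclei (exact 95% interval 2.69 to 6.66) and in 40.9% of the 567 Etv1 Ddr2 nuclei (36.8 to 45.1). In microglia the share was 5.48% (4.29 to 6.88), from 1260 of 1359 nuclei, the rest being shallower. Before thinning the shares were 17.2%, 93.5% and 8.98%, at median depths of 5646.5, 7614 and 1628 UMIs. Per 1000 nuclei, Prdm16 was at 175, 184, 207 and 308 in the Pth2r Esr1 neurons and at 103, 76.4, 112 and 99.0 in microglia, so it lay above microglia by this measure but not by CPM or by the thinned share. The same 3 LS types with the least Prdm16 held the most Pax6, the homeodomain factor of the dorsal telencephalon, at means of 178 in the Pth2r Esr1, 243 in the Sall3 and 81.3 in the Sema3a neurons, with 17.5 in the next LS type.

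Lhx2 was highest in astrocytes, the Thbs4 cluster, dividing cells and an LS type, the Dach2 Crhr2 neurons, and the LS Crhr2 Dach2 neurons held it at the lower level given above. It was at 60.9, 45.3, 51.6 and 64.9 CPM in astrocytes and at 68.6, 67.8, 67.2 and 99.9 in the LS Dach2 Crhr2 neurons, 19.6 times the median LS type. With nuclei thinned to 1000 UMIs, 7.81% of the 883 Dach2 Crhr2 nuclei held an Lhx2 UMI (exact 95% interval 6.13 to 9.79) against 1.43% of microglia (0.849 to 2.25). Before thinning the shares were 40.4% at a median depth of 7107 UMIs and 2.06% at 1628. The Lhx2 level of the Dach2 Crhr2 neurons overlapped that of a cluster of Thbs4 cells with astrocyte and cilium genes (64.6 on average) and lay above that of astrocytes in every library. Dividing cells were at 52.2 on average, from 64 UMIs.

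Six3 did not follow the LS. In the striatal neurons it stood at 34.9, 34.9, 29.96 and 55.7 CPM, and in LS neurons at 12.7, 11.6, 12.6 and 12.4. By type, the glutamatergic Slc17a6 Otx2os1 neurons (51.8 on average), the striatal Drd2 neurons (51.7) and the LS Sall3 Met neurons (50.3) could not be ordered, since their libraries overlapped. The LS Sall3 Met neurons were at 57.7, 41.3, 48.7 and 53.6, 6.05 times the median LS type, so Six3 was unevenly spread over LS types. Astrocytes were at 33.4, 32.0, 31.6 and 32.8 and stood at 1.72 to 2.60 times microglia per nucleus. By this measure LS neurons stood at 2.08 to 3.00, striatal neurons at 3.87 to 9.31 and cholinergic neurons at 6.34 to 13.3. Median depths over the libraries were 6407 to 12787.5, 4371 to 9208 and 8785 to 16617 UMIs, against 1314.5 to 2658 in microglia. These ratios therefore do not rank the classes in CPM. In LS neurons they do not by themselves place Six3 above microglia in CPM.

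Nkx2-1, Lhx6 and Lhx8 were highest outside the LS neurons. Lhx8 stood at 199.7, 189, 200.2 and 208 CPM in cholinergic neurons, from 45, 28, 52 and 53 nuclei, and every library lay above every value of the other 44 types. The Maf neurons followed at 71.1, 61.3, 83.0 and 48.1 and the Sox6 neurons at 44.2, 36.3, 60.4 and 48.0, and these neighbours overlapped. After thinning to 1000 UMIs, 21.3% of the cholinergic nuclei held an Lhx8 UMI (exact 95% interval 15.6 to 28.1) and 0.238% of microglia did (0.0491 to 0.694). Before thinning the shares were 81.5% and 0.589%, at median depths of 11783 and 1628 UMIs.

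Lhx6 was highest in the Maf neurons in place of the cholinergic neurons. It stood at 83.5, 69.2, 77.01 and 83.6 in the Maf neurons, above every value of the other 44 types, and at 36.5, 38.2, 48.2 and 49.9 in the Sox6 neurons. In cholinergic neurons it was at 12.9, 47.3, 30.6 and 24.8, from 56 UMIs. An unnamed type with Prlr and Gm45194 among its leading genes held Lhx6 at 40.8, 37.9, 58.5 and 65.0 and Lhx8 at 40.8, 31.5, 71.4 and 37.0. Lhx6 in LS neurons as a class (1.54, 1.43, 2.19 and 1.48) was 1.02 to 1.96 times microglia per nucleus. Microglia held few Lhx6 UMIs, so background and a small excess cannot be told apart by this ratio. Of the 23 LS types, 10 had a library with no Lhx6 UMI.

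Nkx2-1 joined the cholinergic and Maf neurons with a few LS types. It stood at 35.1, 47.3, 18.4 and 20.3 in cholinergic neurons, at 31.6, 35.6, 21.1 and 13.7 in Maf neurons and at 4.36, 1.38, 2.04 and 0.941 in Sox6 neurons, so the Maf and Sox6 types did not overlap. The LS Pth2r Calcr neurons held it at 16.5, 24.6, 22.8 and 19.0, within the range of the Maf neurons and 18.4 times the median LS type. The LS Vwa5b1 neurons (16.9 on average) and Esr1 Otx2os1 neurons (12.1) were the next LS types, and the Vwa5b1 neurons also held Lhx8 (25.4). These levels rest on few molecules, with 27, 32, 37 and 44 Nkx2-1 UMIs in the LS Pth2r Calcr neurons.

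**Figure D3:**
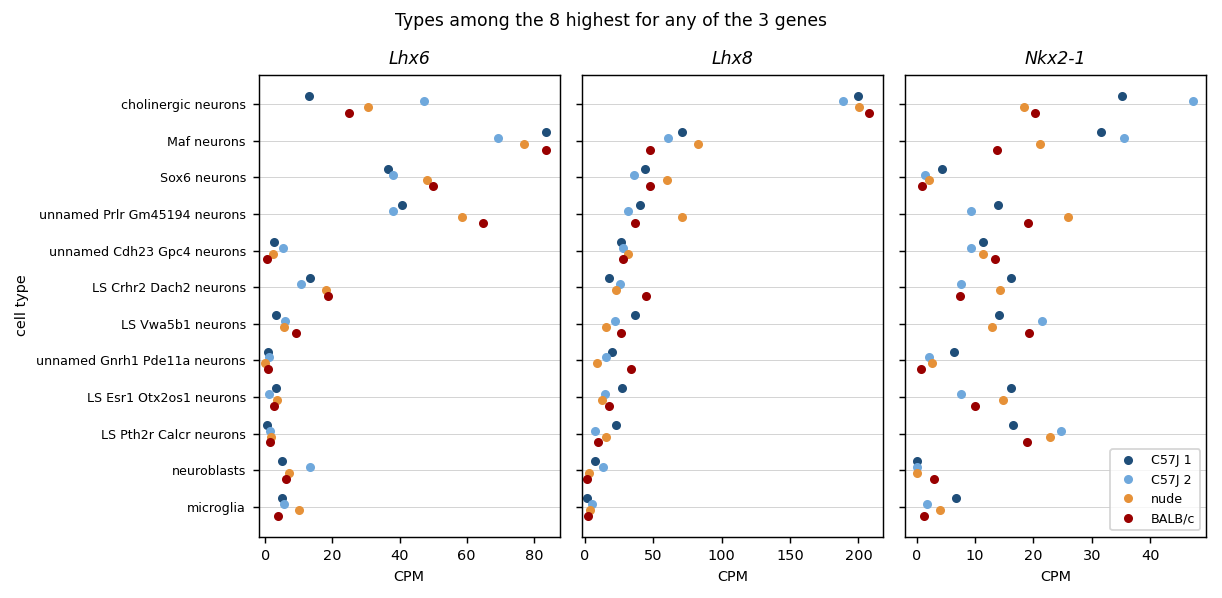
Lhx6, Lhx8 and Nkx2-1 in CPM (x axes, linear, each with its own range) in the types that are among the 8 highest for any of the 3 genes, with 1 point per library. Cholinergic neurons lie from 189 to 208 for Lhx8, apart from all other types, and the Maf neurons lie from 69.2 to 83.6 for Lhx6.

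Across classes, 6 members (Zic1, Zic2, Zic4, Zic5, Nkx2-1 and Prdm16) had all 4 LS values above all 4 striatal values, against 19.5% of all genes with at least 10 UMIs in the pair of classes. Six3 was the 1 member with the reverse order, found in 10.3% of genes. Against Elavl2 Sox6 neurons, 6 members were higher in LS neurons (Zic1, Zic2, Zic4, Zic5, Six3 and Prdm16; 18.3% of genes), and Lhx6 and Lhx8 were lower (13.5%). Against astrocytes, 0 members were higher in LS neurons in CPM (22.5% of genes) and 4 were lower, Zic4, Lhx2, Six3 and Prdm16 (27.5%). Since the clusters were made from the same nuclei, these orders carry no test.

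The gene most like a member was mostly a neighbour in the genome. For each member, the Pearson correlation of its mean log2(CPM + 1) with those of 13971 genes was taken across the 45 types, as a description of types that share libraries and depth. The gene most like it lay within 100 kb for 8 of the 10 members, as it did for 982 of 13961 genes with known positions (7.03%). Zic1 and Zic4 were most like each other (r = 0.93), Zic5 was nearest to Gm5089 (0.88), Nkx2-1 to Sfta3-ps (0.96), Lhx8 to AI606473 (0.96), Lhx2 to Gm13584 (0.89), Six3 to Six3os1 (0.89) and Prdm16 to Prdm16os (0.94). Zic1 and Zic4 overlap each other on opposite strands, as Lhx2 and Six3 overlap these partners. Part of the likeness in these pairs cannot be told apart from shared reads.

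Zic2 and Lhx6 were the exceptions. The gene most like Zic2, on chromosome 14, was the noncoding gene Gm29478 (r = 0.94), which lies on chromosome 9 beyond Zic4, and the gene most like Lhx6, on chromosome 2, was Lhx8 (0.80), on chromosome 3. Between members, Zic1 and Zic2 (0.90), Zic2 and Zic4 (0.90), Zic2 and Zic5 (0.88), Nkx2-1 and Lhx8 (0.85) and Zic4 and Prdm16 (0.81) were most alike after Zic1 and Zic4. Zic5 and Lhx6 had the most opposed patterns (-0.47).

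The nude and BALB/c libraries, which share the BALB/c background, were compared as a group with the C57J libraries to ask whether these factors differ. The paper describes nude mice as T-cell deficient and BALB/c mice as having enhanced Th2 reactivity, so the group holds different immune states. In this comparison immune state cannot be told apart from genetic background, and an effect of immune state was not tested. In LS neurons, Zic4 was at 135 and 133 CPM in nude and BALB/c against 98.0 and 94.5 in C57J, without overlap. The difference was 0.50 on the log2 scale (SE 0.077, edgeR quasi-likelihood test, adjusted p = 0.0262), which lies by a margin smaller than the rounding below the fold limit of 0.5 used for calls, so Zic4 was not called. Zic2 was at 26.9 and 34.8 against 21.9 and 21.4, a difference of 0.54 (SE 0.15, edgeR adjusted p = 0.150) that was largest in BALB/c. Prdm16 (0.15, SE 0.066, edgeR adjusted p = 0.360) and Zic5 (0.10, SE 0.10, adjusted p = 0.731) were also without overlap, as were 19% of all genes in this direction.

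With edgeR, 0 of the 10 members were called in LS neurons, where 423 of 18695 genes (2.26%) passed both limits, an adjusted p under 0.05 and a log2 change beyond 0.5 in size. Zic2 and Zic4 had an unadjusted p below 0.05, and DESeq2 called both. The median of the members was 0.13, against -0.01 over all genes tested, and 9 of the 10 estimates were above 0. Several of these lay within 1 SE of 0, such as Zic1 (0.049, SE 0.087). In astrocytes 6 of 10 were above 0 (median 0.085), in striatal neurons 2 of 7 (-0.28) and in Elavl2 Sox6 neurons 3 of 9 (-0.33). The share of all genes above 0 was not taken, so no shift of the members as a set is read from this. The p-values measure the spread between these pooled libraries.

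Leaving out a library changed the Zic4 difference little and its adjusted p more. Within batch 2, which leaves out C57J 1, it was 0.55 (edgeR adjusted p = 0.0366), and without C57J 2 it was 0.45 (adjusted p = 0.0374). Without nude it was 0.50 (adjusted p = 0.0963) and without BALB/c 0.50 (adjusted p = 0.149), so with 1 library on that side the test was not passed. With equal nuclei of every LS type drawn from each library, a setting added after seeing the data, it was 0.43 (adjusted p = 0.0574).

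By LS type, the nude and BALB/c values of Zic4 both exceeded those of C57J in 16 of 23 types and lay below them in 1, the Cpa6 Otx2os1 neurons. At least 16 such types were reached by 2.43% of the 8998 genes at a mean of 10 CPM or more over LS types. The Col6a3 Grid2ip neurons were at a mean of 324 in C57J and 509.1 in nude and BALB/c, and the Foxp2 Ddr2 neurons at 89.6 and 79.8 against 159 and 141, without a test. Zic2 was likewise higher in 16 of 23 types and lower in 0, and Prdm16 in 14 and 0, where 3.9% of genes reached at least 14. The other members were higher in 0 to 6 types and lower in 2 to 7. Lhx2 was higher in 1 and lower in 7, and Six3 was higher in 0 and lower in 6. For these counts the share over all genes was not taken, so they are not read as a result about the members. The types share their libraries and are not replicates of a strain. Types high in Zic4 also differed in number. The libraries held 5352, 5031, 6129 and 4436 nuclei of all LS types, so the counts are not shares. The Col6a3 Grid2ip neurons, highest in Zic4, numbered 132, 158, 272 and 231, more in nude and BALB/c than in either C57J library. The Dach2 Crhr2 neurons numbered 193, 217, 278 and 195 and the Met Ddr2 neurons 450, 373, 405 and 290. The Etv1 Ddr2 neurons numbered 140, 152, 165 and 110. Counts of these latter types overlapped between the strains.

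**Figure D4:**
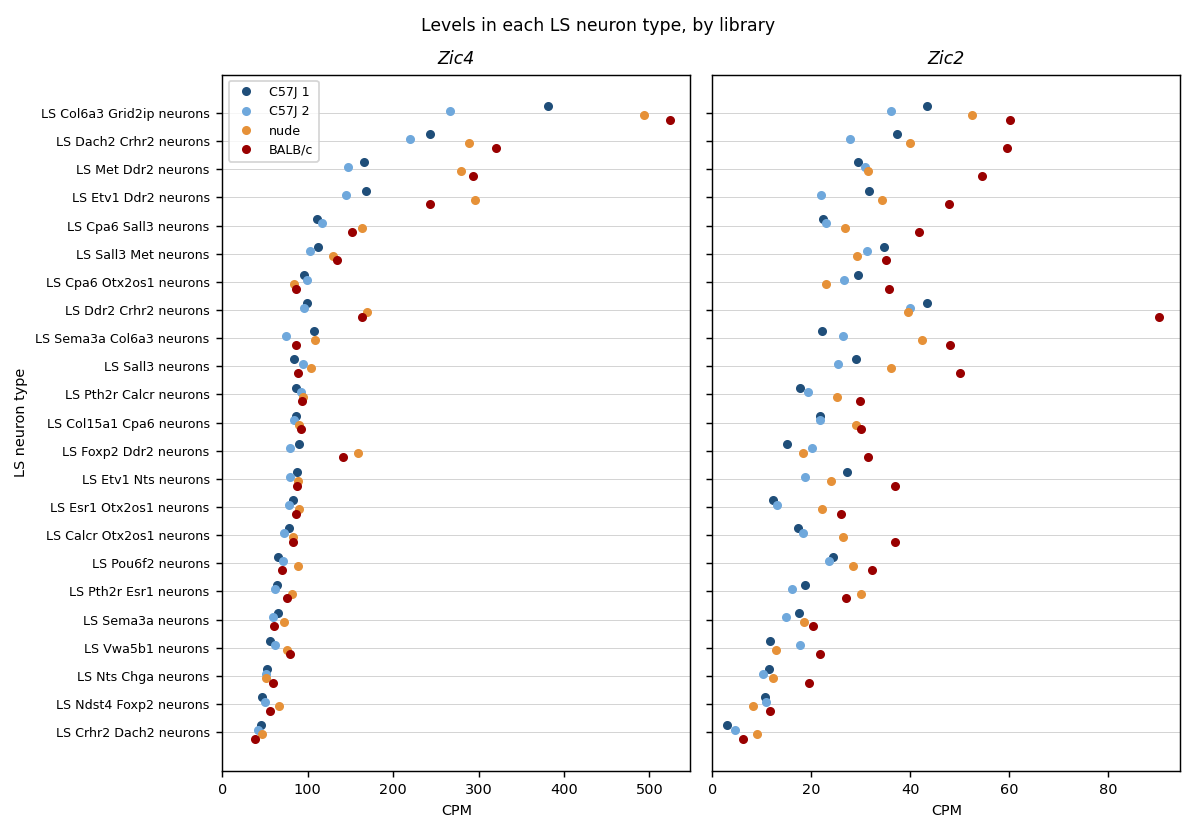
Zic4 (left) and Zic2 (right) in CPM (x axes, linear) in each of the 23 LS types (rows, ordered by the C57J mean of Zic4), with 1 point per library. In the Col6a3 Grid2ip neurons the Zic4 points of nude and BALB/c lie at 494 and 524, to the right of the C57J points at 381 and 266.

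Markers of astrocytes and oligodendrocytes were not higher in the LS neurons of nude and BALB/c. In LS neurons, the summed level of 5 astrocyte markers was 218, 196, 199 and 128 CPM and that of 6 oligodendrocyte markers 327, 366, 238 and 210.2, so both were lowest in BALB/c. Among these markers, 0 had both nude and BALB/c above C57J, 2 and 5 had both below, and 0 were at 0 in any library. The 4 LS markers together were at 2141, 2152, 2199.5 and 2166.

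In astrocytes, Zic4 was at 183, 184, 192 and 187 and its strain difference was 0.12 (SE 0.16, edgeR adjusted p = 0.913). The test of the difference between LS neurons and astrocytes gave 0.36 (SE 0.17, edgeR interaction adjusted p = 0.962, unadjusted p = 0.0744), so a strain effect particular to either was not shown. By this test 0 of the 10 members and 3 of 18363 genes (0.0163%) differed, 0 members had an unadjusted p below 0.05, and DESeq2 called 26 genes. In astrocytes themselves, edgeR called 0 of the 10 members and 8 of 13808 genes (0.0579%), 0 members had an unadjusted p below 0.05, and DESeq2 called 0 members.

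In Elavl2 Sox6 neurons, Zic1 was at 56.6, 51.1, 46.6 and 25.1, a difference of -0.63 (SE 0.25, edgeR adjusted p = 0.427), and Nkx2-1 was at 13.2, 7.83, 6.10 and 2.75, a difference of -1.36 (SE 0.45, edgeR adjusted p = 0.306) from 36, 21, 19 and 17 UMIs. In both, nude and BALB/c lay below C57J, as did 20.9% of the genes tested. The class joins the Maf and Sox6 types, whose Nkx2-1 levels, given above, did not overlap. The part of the mix of these types in the Nkx2-1 difference was not tested. Of the 9 members tested, edgeR called 0, against 94 of 12380 genes (0.759%), and DESeq2 called 0, while Zic1 and Nkx2-1 had an unadjusted p below 0.05. In this class, Zic1 stood at 0.984 to 1.71 times microglia per nucleus, near background, and BALB/c, the deepest library, had the lowest level. The part of depth in its difference was not tested. Without nude, the Zic1 difference was -1.08 and passed the test (edgeR adjusted p = 0.0275), and without BALB/c it was -0.20.

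In striatal neurons, 7 members were tested and edgeR called 0, against 50 of 12110 genes (0.413%). None of the 7 had an unadjusted p below 0.05, and DESeq2 called 0. Six3, the member that stood above background there, was at 34.9, 34.9, 29.96 and 55.7, a difference of 0.39 (SE 0.27, edgeR adjusted p = 0.719) with the highest value in BALB/c.

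**Figure D5:**
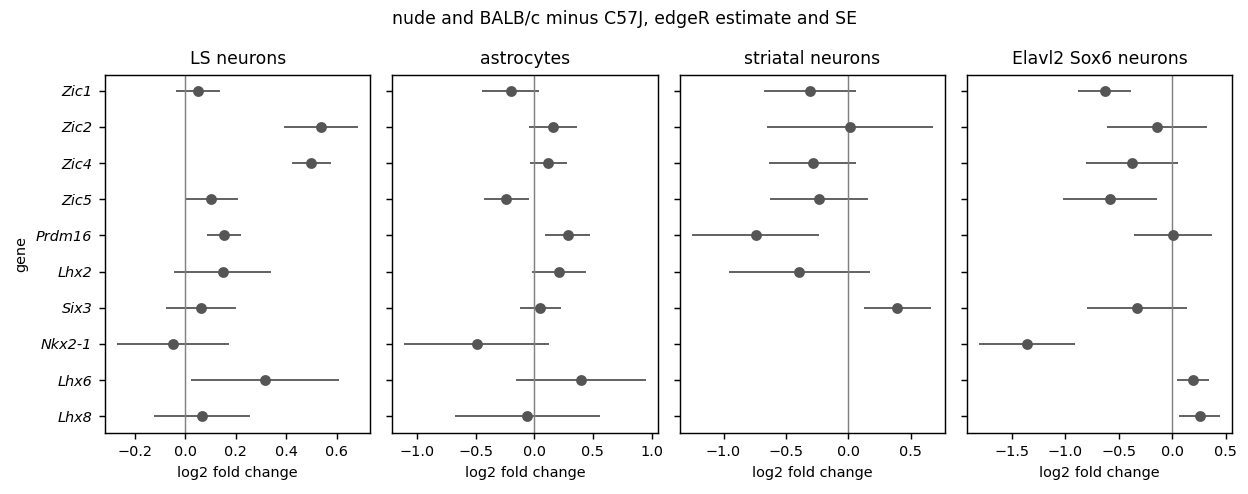
Estimated log2 fold change of nude and BALB/c against C57J (x axes, each with its own range) for the 10 genes in LS neurons, astrocytes, striatal neurons and Elavl2 Sox6 neurons, where points are edgeR estimates, bars are 1 SE and a gene not tested has no point. Zic4 and Zic2 lie at 0.50 and 0.54 in LS neurons, and Nkx2-1 lies at -1.36 in Elavl2 Sox6 neurons.

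Other factors of the same pathways, 43 in all, were measured beside the members. In LS neurons, edgeR called 0 of the 36 tested, with a median difference of 0.04, while 6 had an unadjusted p below 0.05 and DESeq2 called 1, Lmo3. Lmo3, a LIM domain partner, was at 42.7, 48.5, 77.9 and 61.8 CPM, a difference of 0.64 (SE 0.12, edgeR adjusted p = 0.0552). Among LIM partners, Ldb2, which bridges LIM factors, was at 302, 321, 350.5 and 277 and Lmo4 at 48.7, 50.6, 45.5 and 52.5 in LS neurons, and both overlapped between strains.

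The subpallial factors highest in LS neurons were Meis2 (932, 860.4, 880.5 and 889), a cofactor of homeodomain factors, Dlx1 (42.6, 34.5, 36.0 and 32.1) and Sp9 (27.5, 28.0, 30.4 and 28.6), which specify GABAergic neurons. Of the patterning genes, Pax6 stood at 14.7, 15.2, 20.6 and 18.1 and Sp8 at 9.41, 7.85, 8.29 and 8.90. In the Zic group, Six3os1 stood at 7.27, 9.17, 9.43 and 7.16 and Mecom, a relative of Prdm16, at 0.8005, 0.731, 1.02 and 0.766. In astrocytes, striatal neurons and Elavl2 Sox6 neurons, edgeR called 0 of the 29, 21 and 18 listed genes tested, with 1, 5 and 5 at an unadjusted p below 0.05, and DESeq2 called 0 in each.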

How the data were processed

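The authors aligned reads of 10x 3' libraries to mm10, using Cell Ranger 7.0.1 per the submitters' processing notes. The values they deposited are raw UMI counts, not normalized, for the barcodes kept by its filter. The sources used here do not say whether introns were counted or strand was used. The public C57J dataset the study integrates was not analysed here. The study's limits were applied (genes between 200 and 6000, UMIs between 300 and 50000, mitochondrial share under 2%). The 6235 highest-scoring of 55660 nuclei, at an expected rate of 0.8% per 1000 nuclei and from 2 simulated doublets per nucleus, were removed as doublets.

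Nuclei of the 4 libraries were clustered together (Leiden, leidenalg 0.10.2, resolution 1, 3000 variable genes, 40 components, the 6 nearest nuclei of every library), then LS neurons, other neurons and other cells separately. The 10 members, the 43 other listed factors and 96 noncoding genes within 100 kb of a listed gene were left out of the clustering. Clusters were named from fixed markers, so a name is a label rebuilt here and may differ from the study's. A cluster of 884 nuclei with glial genes was set aside, and types with under 20 nuclei in a library were not compared.

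UMIs were summed per library and class, and 2 C57J libraries were compared with the nude and BALB/c libraries by the quasi-likelihood F test of edgeR 4.0.16 (R 4.3.3) with TMM and filterByExpr. Adjustment was by Benjamini-Hochberg over all genes tested, and the limits for calls (adjusted p under 0.05, log2 change beyond 0.5) are those of the study, which tested single nuclei. Simulated data with the LS libraries' depths, tested on 18652 genes, gave back 66% of 100 genes changed 1.5-fold and 100% of 100 changed 2-fold. The changed genes were drawn only from those above a limit on expected UMIs. A fixed spread between libraries was set, with nude and BALB/c as replicates of each other. The shares therefore do not hold for genes with few UMIs or a larger spread, and a 2-fold change in such genes can go uncalled. Intervals of shares are exact (Clopper-Pearson) and hold counting error alone. Library sizes set the precision, with 51 Lhx6 UMIs in LS neurons of C57J 2 but 11706 of Prdm16. Alternatives were DESeq2 1.42.0, library totals without TMM, no filter, the adjusted p alone, doublets kept, stricter limits, resolution 2, another seed, thinned nuclei, the mean over nuclei and each library left out. Named were the 10 members, the 3 genes most like each, and of each list the called genes and the 3 highest in LS neurons. Some listed genes that meet this rule are not reported here. The members and lists were chosen with earlier results of these data known, and Chat, Slc5a7, cell type and neighbour genes outside this rule are named after their values were seen.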

Additional observations from a re-analysis of the deposited data

Results flagged for a closer look

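The order of the strains for Zic5 differed in direction between cell classes, by small gaps. In LS neurons both nude and BALB/c lay above both C57J libraries (log2 difference 0.10), in Elavl2 Sox6 neurons both lay below (-0.59), and in astrocytes both lay below (-0.24). The values were 29.9, 27.8, 30.5 and 30.4 in LS neurons, 7.35, 7.09, 7.07 and 3.23 in Elavl2 Sox6 neurons and 32.8, 38.5, 32.1 and 25.6 in astrocytes (UMIs per 1000000 UMIs; C57J 1, C57J 2, nude, then BALB/c). None of these differences passed the edgeR test (adjusted p = 0.731, 0.739 and 0.856). In Elavl2 Sox6 neurons the nearest values, 7.07 in nude and 7.09 in C57J 2, came from 22 and 19 UMIs. Of all genes, 19% had the same order as Zic5 in LS neurons and 20.9% in Elavl2 Sox6 neurons. The share of genes with opposite orders was not taken, so the directions are not read as a result about Zic5. The difference between LS neurons and astrocytes was 0.33 (SE 0.19, edgeR interaction adjusted p = 0.962), and that between LS neurons and Elavl2 Sox6 neurons was not tested. Per nucleus, Zic5 stood at 0.829 to 1.08 times microglia in Elavl2 Sox6 neurons and at 1.18 to 2.01 times in astrocytes, close to background in both.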

How the results depend on the processing

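Counts of genes called, and of members higher in LS than in striatal neurons, were repeated under 53 alternatives. Of these, 30 stayed within 1.5 times the count reported and 23 moved further. DESeq2 called 659 genes in LS neurons, 88 in astrocytes and 26 in the comparison of LS neurons with astrocytes. Without the filter on low counts, edgeR called 1061 genes in LS neurons, 24 in Elavl2 Sox6 neurons, 408 in astrocytes, 407 in striatal neurons and 33 in the comparison of LS neurons with astrocytes. Library totals without TMM and stricter limits on nuclei each gave 14 genes in astrocytes. With doublets kept, 7 genes were called in Elavl2 Sox6 neurons, a class that then held 488 nuclei in place of 1491, since its Sox6 neurons fell outside it, as they also did at resolution 2 (442 nuclei). Leaving out each library in turn gave 77 (without BALB/c) to 1121 (without C57J 2) genes in LS neurons, 32 (without BALB/c) to 219 (without C57J 2) in Elavl2 Sox6 neurons, 62 (without BALB/c) to 409 (without C57J 2) in striatal neurons and 0 (without C57J 1 or C57J 2) to 1039 (without nude) in astrocytes, the cause of which was not tested.

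The number of members higher in LS than in striatal neurons stayed at 5 to 8 throughout. Zic4 in LS neurons, not called because of the fold limit, passed it with DESeq2 (0.51), without the filter (0.51), with stricter limits (0.50), without C57J 1 (0.55) and by the adjusted p alone (0.50). Zic2 passed with DESeq2 (0.54, adjusted p = 0.0498) and without the filter (0.55, edgeR adjusted p = 0.0166). Its adjusted p ranged from 0.107 to 0.730 without 1 library. In all, 539 alternatives to the difference or the level of a single gene were taken, of which 500 were member levels. Of these levels, 457 moved by less than the spread between libraries. The rest were differences of Zic2 and Zic4 in LS neurons and of Zic1 and Nkx2-1 in Elavl2 Sox6 neurons. Among these differences, 0 were reversed and 8 passed the test newly, which are those above and Zic1 in Elavl2 Sox6 neurons without nude.

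No paired analysis was possible because the C57J libraries carry numbers 1 and 2 and the nude and BALB/c libraries carry none. Depth limits Lhx6 and Nkx2-1 most, with 305 and 633 UMIs in all LS neurons.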
